A study of Mus musculus with 4 samples.

Results

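Bach2, Bcl6, Mef2c, Zeb1 and Zeb2 are 5 genes for transcription factors that act around the passage from the pre-B to the mature B cell, and they were followed in RNA sequencing of B cells from mouse bone marrow. They were picked by gene symbol out of 24411 genes, and all 5 were among the 12617 genes with enough reads to be tested. The cells were sorted from the marrow of tibiae and femora by B220, a form of the CD45 protein that marks the B lineage. The groups are 2 libraries from mice labelled as overexpressing Arid5b, a gene for a protein of the ARID family that binds DNA, and 2 libraries from wildtype mice. How Arid5b was raised, in which cells, the strain, the age and the number of mice per library are not given in the sources used here. Nothing states that the libraries came from separate animals, so p-values measure no more than the spread between libraries. Where a single overexpression-labelled library is tested, that spread comes from the wildtype pair and a prior across genes.

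BACH2 is a repressor with a BTB domain that pairs with small MAF proteins, and BCL6 is a BTB zinc finger repressor that recruits the NCOR and BCOR corepressors. In B cells both hold down Prdm1, the driver of the plasma cell programme; in pre-B cells BCL6 restrains p53 and Arf, and BACH2 acts against it at the checkpoint after the pre-B receptor. MEF2C is a MADS-box activator that works with EBF1 in B cell progenitors and is held in check by class IIa histone deacetylases, while ZEB1 and ZEB2 are zinc finger repressors that bind E-boxes and recruit CTBP proteins.

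The libraries held 14196665 to 20356404 reads assigned to genes, so counting error was small for these genes. Of the reads 25.7% to 30.5% were from the ribosomal RNA precursor Rn45s, and the library totals include them. All 9 B lineage markers stood at 1 CPM (counts scaled to the library total) or more in every library, with summed levels of 3345 and 5353 CPM in overexpression-labelled libraries 1 and 2 and 4868 and 5423 CPM in wildtype libraries 1 and 2. Among them Ptprc, the gene of CD45, lay 2.47 below wildtype in overexpression-labelled library 1 on the deposited log2 scale. Cd79b (1.10), Pax5 (0.96) and Ebf1 (0.50) lay above wildtype there, and the other markers of the list below. Arid5b itself (chromosome 10, 68092520 to 68278740, mm10) had 3804 and 136 CPM in overexpression-labelled libraries 1 and 2, against 149 and 174 CPM in wildtype libraries 1 and 2. It thus goes against the label of overexpression-labelled library 2. Overexpression-labelled library 1 stood apart, with Pearson correlations across tested genes of 0.786 to 0.792 with the other libraries, which correlated with each other at 0.964 to 0.982. Xist, the RNA of the inactive X chromosome, had 68540 and 132008 reads in overexpression-labelled libraries 1 and 2 and 24 and 77255 in wildtype libraries 1 and 2, so the wildtype pair was of mixed sex. For these reasons each overexpression-labelled library is given alone against the wildtype pair as well as both together.

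Stretches before start sites are shown here for the 3 genes with the largest differences in a single library. Those with a match to the core that BCL6 recognises were picked. They are the 250 bases upstream of a RefSeq start site (GRCm38.p6), 5′ to 3′ on the strand of the gene, with capitals marking TTCNNNGAA, which reads the same on both strands.
Bcl6, upstream start, chr16:23988853-23989102, minus strand: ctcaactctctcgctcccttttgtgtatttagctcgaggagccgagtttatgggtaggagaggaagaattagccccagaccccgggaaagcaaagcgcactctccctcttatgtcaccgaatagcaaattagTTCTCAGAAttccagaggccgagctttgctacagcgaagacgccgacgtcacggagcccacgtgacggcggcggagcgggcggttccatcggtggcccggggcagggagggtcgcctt
Bcl6, start within the gene, chr16:23981284-23981533, minus strand: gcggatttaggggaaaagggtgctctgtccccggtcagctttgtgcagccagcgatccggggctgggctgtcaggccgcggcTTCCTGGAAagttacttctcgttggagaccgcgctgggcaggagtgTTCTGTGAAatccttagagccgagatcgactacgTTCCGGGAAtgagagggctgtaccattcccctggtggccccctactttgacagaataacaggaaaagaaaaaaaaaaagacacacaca
Bach2, start within the gene, chr4:32417185-32417434, plus strand: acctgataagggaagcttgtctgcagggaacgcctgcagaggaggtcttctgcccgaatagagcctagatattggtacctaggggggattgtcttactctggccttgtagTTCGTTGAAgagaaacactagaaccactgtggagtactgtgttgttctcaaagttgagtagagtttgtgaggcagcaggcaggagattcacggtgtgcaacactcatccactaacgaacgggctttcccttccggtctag
Mef2c, upstream start, chr13:83503784-83504033, plus strand: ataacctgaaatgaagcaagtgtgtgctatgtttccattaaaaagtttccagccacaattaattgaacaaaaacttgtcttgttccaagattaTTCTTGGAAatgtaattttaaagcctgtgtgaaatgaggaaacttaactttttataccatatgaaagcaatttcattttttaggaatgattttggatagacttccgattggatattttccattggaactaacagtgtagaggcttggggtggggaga
The stretch at the Bcl6 start within the gene held 3 matches, and the other stretches printed held 1 each. Mef2c has 3 start sites, and of their stretches only the one printed held the core. Of 10 such stretches of Bach2, Bcl6, Mef2c and Zeb2, some of them overlapping, 6 held the core, against 7.02% of 32851 stretches of all genes. The overlapping Zeb2 stretches of start sites 2 and 3 share the same match, which is counted in each. The BACH and MAF core TGANTCA was in 2 of the 10 (6.75% of all). The ZEB E-box CACCTG, searched on both strands, was in 0 (17.2%) and the MEF2 core, CTA and TAG with 4 bases between them, in 0 (3.20%). These are matches of letters only, and binding was not measured.

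Bcl6 was the member that differed most. Bcl6 (ENSMUSG00000022508.5, chromosome 16, 23965052 to 23988852, minus strand, mm10) had 766 and 4711 reads in overexpression-labelled libraries 1 and 2, against 4879 and 3848 reads in wildtype libraries 1 and 2. These reads came to 50.1 and 231 CPM in the overexpression-labelled libraries and 242 and 271 CPM in wildtype. Library 1 alone was far below the rest, and library 2 lay just under the lower wildtype library, so the groups did not overlap. The level of normalised reads in library 1 was 17.7% of the wildtype mean, and that in library 2 was 91.1%. On the deposited log2 scale Bcl6 fell in library 1 by 2.46 (SE 0.139, limma adjusted p = 6.69e-09). Library 2 differed from wildtype by -0.13 (95% interval -0.42 to 0.16, limma adjusted p = 0.676). Library 1 lay below library 2 by more than the wildtype spread (difference -2.33, SE 0.158, limma adjusted p = 9.82e-08), in a contrast where 52.6% of all tested genes were called, 22.4% as higher and 30.1% as lower. In the comparison with wildtype 61.2% of all tested genes were called in library 1, 34.4% as lower, so a call alone is common there; the size of the Bcl6 fall was matched or passed, in either direction, by 9.22% of genes.

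**Figure D1:**
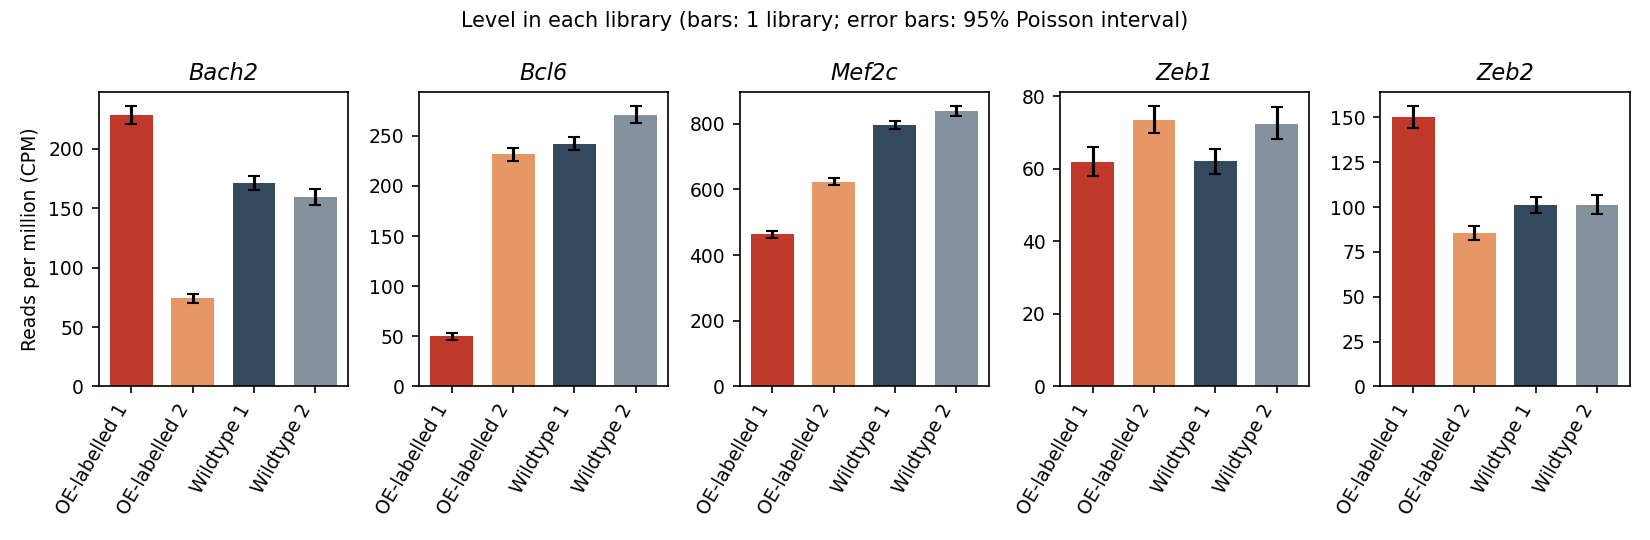
CPM in each library for the 5 genes, one panel per gene; bars are single libraries and error bars the 95% Poisson interval, which covers counting error only. Bcl6 is low in overexpression-labelled library 1 (50.1 CPM), Bach2 in library 2 (74.3 CPM), and Mef2c is lower in both overexpression-labelled libraries than in either wildtype library.

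Bach2 differed in the other library. Bach2 (ENSMUSG00000040270.16, chromosome 4, 32238804 to 32586108, plus strand, mm10) had 3490 and 1513 reads in overexpression-labelled libraries 1 and 2, against 3445 and 2260 in wildtype libraries 1 and 2. That is 228 and 74.3 CPM in the overexpression-labelled libraries and 171 and 159 CPM in wildtype. Library 1 was the highest of the 4 and library 2 the lowest, with the wildtype pair between them. In library 2 Bach2 stood at 45.4% of the wildtype mean of normalised reads and fell by 1.12 on the deposited log2 scale (SE 0.145, limma adjusted p = 0.00303). Only 1.66% of tested genes were called in library 2 and 0.888% as lower, and 2.59% of genes differed by as much in either direction. The call was lost when library totals without the ribosomal RNA precursor Rn45s set the scaling (-1.14, limma adjusted p = 0.0984) and without a filter on low values (limma adjusted p = 0.196), where no gene was called in library 2.

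In library 1 Bach2 lay 0.32 above wildtype (95% interval 0.03 to 0.61), with a limma adjusted p of 0.0538. It passed with recomputed size factors (0.42, limma adjusted p = 0.0259), with totals without Rn45s (0.52, limma adjusted p = 0.02) and with a filter of 5 CPM (limma adjusted p = 0.0459). The libraries of the overexpression label differed from each other in Bach2 by 1.44 (library 1 minus library 2, SE 0.161, limma adjusted p = 1.01e-05). Neutrophil markers also set library 2 apart, with summed levels of 141 and 1613 CPM in overexpression-labelled libraries 1 and 2 and 6.20 and 109 CPM in wildtype libraries 1 and 2. All 9 of the 10 that were tested were called higher in library 2, also by limma-voom; 1 of 9 was with log2 of normalised reads plus 0.5 and with a robust prior, 0 of 9 with recomputed size factors or totals without Rn45s, and 0 of 10 without a filter. Their part in the Bach2 difference was not tested. Lcn2, Camp, Ltf, Chil3 and Cd177 were at 0 reads in wildtype library 1.

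Mef2c was lower in both overexpression-labelled libraries, and past the threshold in library 1. Mef2c (ENSMUSG00000005583.16, chromosome 13, 83504034 to 83667080, plus strand, mm10) had 7070 and 12695 reads in overexpression-labelled libraries 1 and 2, against 16060 and 11904 in wildtype libraries 1 and 2. In CPM these were 463 and 624 in the overexpression-labelled libraries and 797 and 839 in wildtype. The groups did not overlap, and library 1 was the lower of its group. Mef2c fell in library 1 by 0.97 (SE 0.115, limma adjusted p = 9.55e-06), to 51.1% of the wildtype mean of normalised reads. In library 2 it was at 77.0%, a difference of -0.38 (95% interval -0.64 to -0.11) that did not pass (limma adjusted p = 0.155). The difference between library 1 and library 2 was -0.59 (SE 0.136, limma adjusted p = 0.00291). A difference as large as that of Mef2c was common in library 1, where 46.1% of tested genes showed it.

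Of the ZEB genes Zeb2 passed in library 1 and Zeb1 in no comparison. Zeb2 (ENSMUSG00000026872.17, chromosome 2, 44983632 to 45117395, minus strand, mm10) had 2294 and 1743 reads in overexpression-labelled libraries 1 and 2, against 2039 and 1436 in wildtype libraries 1 and 2. It stood at 150.1 and 85.6 CPM in the overexpression-labelled libraries and at 101 CPM in each wildtype library. Library 1 was above and library 2 below the wildtype pair. The distance of library 1 was matched or passed, in either direction, by 74.8% of tested genes. Zeb2 rose in library 1 by 0.42 (SE 0.142, limma adjusted p = 0.0211), a 1.34-fold level, in a library where 26.8% of genes were called higher. The call was lost without a filter on low values (limma adjusted p = 0.0653). In library 2 the difference was -0.22 (95% interval -0.55 to 0.10, limma adjusted p = 0.504), and library 1 lay 0.64 above library 2 (SE 0.166, limma adjusted p = 0.00601).

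Zeb1 (ENSMUSG00000024238.15, chromosome 18, 5591860 to 5775467, plus strand, mm10) had 947 and 1496 reads in overexpression-labelled libraries 1 and 2, against 1250 and 1029 in wildtype libraries 1 and 2. At 62.0 and 73.5 CPM in the overexpression-labelled libraries and 62.0 and 72.5 CPM in wildtype, the groups overlapped. No difference passed. It was -0.25 in library 1 (95% interval -0.61 to 0.10, limma adjusted p = 0.198) and 0.14 in library 2 (95% interval -0.22 to 0.50, limma adjusted p = 0.717), and library 1 minus library 2 gave -0.40 (95% interval -0.81 to 0.01, limma adjusted p = 0.0951). In all, 3 of the 5 genes were called in library 1 (61.2% of all tested genes), 1 in library 2 (1.66%) and 4 between the libraries (52.6%).

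**Figure D2:**
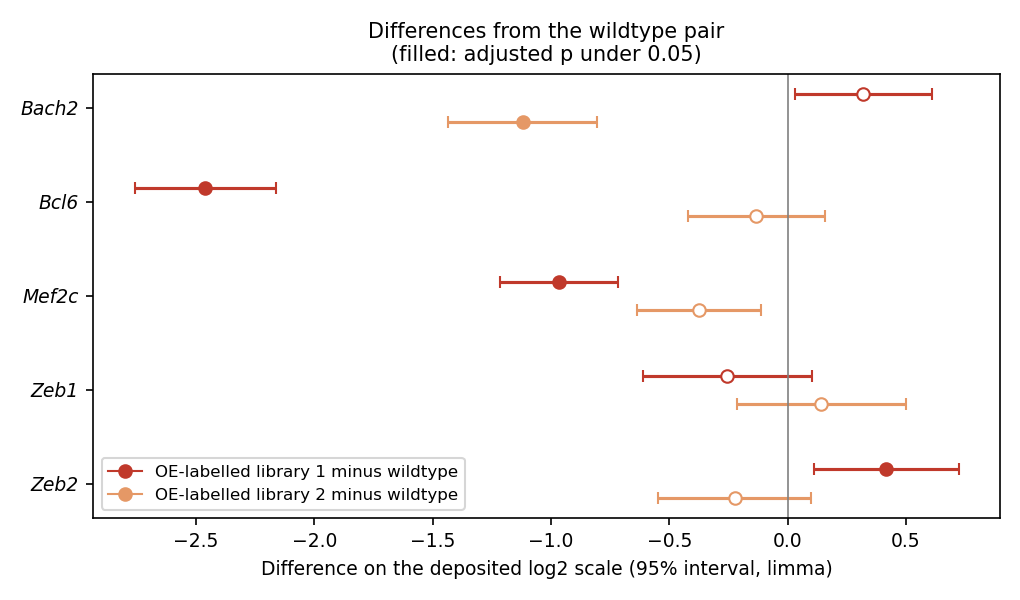
Difference of each overexpression-labelled library from the wildtype pair on the deposited log2 scale, with 95% intervals from limma; filled points have an adjusted p under 0.05. Bcl6 (-2.46), Mef2c (-0.97) and Zeb2 (0.42) passed in library 1 and Bach2 (-1.12) in library 2.

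With both overexpression-labelled libraries set against both wildtype libraries, 0 of the 5 genes passed, as did 0 of all 12617 genes (0%). At an unadjusted p under 0.05 limma had 280 genes; limma-voom called 0 and had 186. Bcl6 averaged 141 ± 128 CPM in the overexpression-labelled libraries and 257 ± 20.4 CPM in wildtype (SD, n = 2 each), with a log2 difference of -1.30 (95% interval -3.48 to 0.89, limma adjusted p = 0.726). Mef2c averaged 543 ± 114 CPM and, in wildtype, 818 ± 29.2 CPM (SD, n = 2 each), a log2 difference of -0.67 (95% interval -1.54 to 0.20, limma adjusted p = 0.726). For Bach2 the spread between the overexpression-labelled libraries (151 ± 109 CPM) was wider than the distance to wildtype (165 ± 8.35 CPM, SD, n = 2 each), and the log2 difference was -0.40 (limma adjusted p = 0.775). Zeb1 differed by -0.06 (limma adjusted p = 0.938) and Zeb2 by 0.10 (limma adjusted p = 0.903). Bcl6 and Mef2c were the 2 members whose groups did not overlap, both lower. Over all tested genes 42.6% did not overlap, 23% with lower and 19.6% with higher values in the overexpression-labelled group, so 2 of 5 is near the background. Leaving out library 1 or library 2 moves these differences as the comparisons of single libraries show.

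Within each library the order of the genes was compared as CPM per kilobase of coding length, since the genes differ in length. Mef2c led in every library, with 319 and 430 CPM per kilobase in overexpression-labelled libraries 1 and 2 and 549 and 577 in wildtype libraries 1 and 2. Bcl6 came second in overexpression-labelled library 2 (109) and in wildtype (114 and 128), but took the fourth place in overexpression-labelled library 1 (23.6). Bach2 took the second place there (90.7) and the third place elsewhere (29.5 in overexpression-labelled library 2, 67.9 and 63.2 in wildtype). A ratio within a library does not depend on the scaling between libraries. The ratio of Bach2 to Bcl6 was 3.84 and 0.271 in overexpression-labelled libraries 1 and 2, against 0.595 and 0.495 in wildtype libraries 1 and 2. The overexpression-labelled libraries thus lay on opposite sides of the wildtype pair. Zeb2 stood above Zeb1 in all 4 libraries by coding length, with ratios of 2.15 and 1.03 in overexpression-labelled libraries 1 and 2 and 1.45 and 1.24 in wildtype. By the length of all annotated exons, a choice added after seeing the data, these ratios were 1.25 and 0.600 in the overexpression-labelled libraries and 0.840 and 0.718 in wildtype, so that order rests on the length used.

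**Figure D3:**
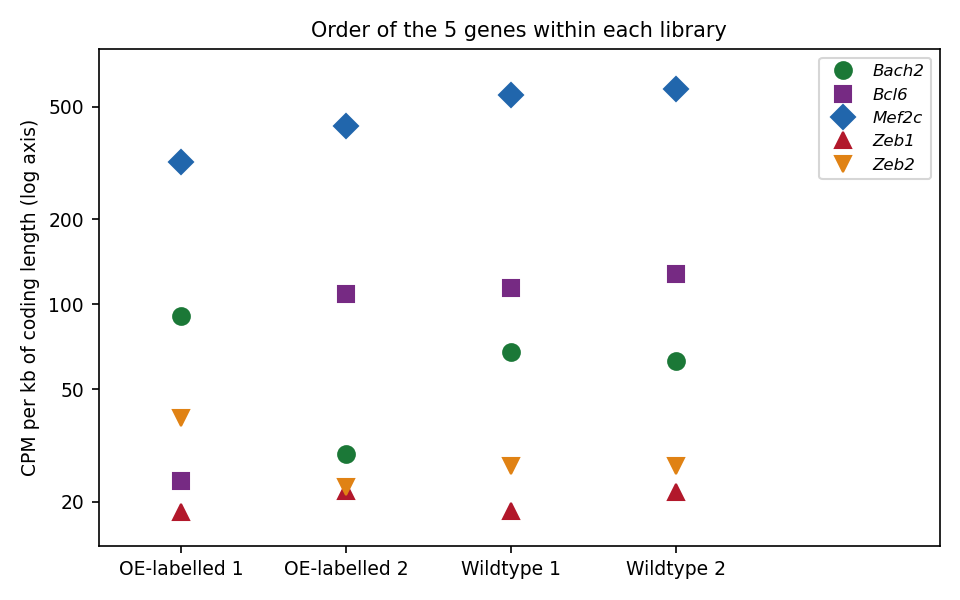
Level of each gene within each library as CPM per kilobase of coding length, on a log axis; each point is 1 library. Bcl6 and Bach2 change places between overexpression-labelled library 1 (23.6 and 90.7) and the other libraries, while Mef2c is at the top in all 4.

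The list of BACH genes holds small MAF partners, CNC relatives, Keap1 and Hmox1. Of its 9 genes, all tested, 1 rose and 6 fell in library 1 (34.4% of all tested genes were called lower there, and 0 of the 9 were called without a filter on low values), with a median difference of -1.22 against -0.15 over all tested genes. Mafk, a small MAF partner, had 33.4 and 82.8 CPM in overexpression-labelled libraries 1 and 2, against 80.0 and 94.2 CPM in wildtype libraries 1 and 2, and fell in library 1 by 1.48 on the log2 scale (SE 0.168, limma adjusted p = 6.15e-06). Bach1, the close relative of Bach2, fell by 0.78, and the CNC factors Nfe2l1 (-1.66) and Nfe2 (-1.54) fell as well. Keap1, which targets NRF2 for breakdown, rose by 1.47. Hmox1, a classical BACH1 target, differed by -0.15 (limma adjusted p = 0.671). In library 2, where Bach2 fell, 0 of the 9 passed (median -0.05).

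In library 1, where Bcl6 fell and 26.8% of all tested genes were called higher and 34.4% lower, the BCL6 corepressors divided. Of 14 tested, 5 rose and 6 fell (median -0.07), against 2 and 1 without a filter. Ctbp2 had 47.4 and 3.83 CPM in overexpression-labelled libraries 1 and 2, against 5.26 and 4.51 CPM in wildtype libraries 1 and 2, and rose in library 1 by 2.81. Hdac3, the deacetylase of the NCOR complex, rose by 1.42, Tbl1x by 1.37 and Ctbp1 by 0.49, while Kdm2b (-2.41) and Zbtb7a (-1.10) fell. Ncor1 (0.11, limma adjusted p = 0.459) and Bcor (-0.01, limma adjusted p = 0.958) did not pass. In library 2 Tbl1x alone passed, with a fall of 0.79 (limma adjusted p = 0.0486) that was lost under 5 of the 7 other settings tried on that library, though not with a filter of 5 CPM or by limma-voom.

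Library 1 had 26.8% of all tested genes called higher and 34.4% lower, and fewer genes called without a filter. Among 18 genes reported as targets of BCL6 or BACH2, 17 were tested and moved both ways in library 1. In all, 6 rose and 10 fell (median -0.51), against 4 and 4 of 18 without a filter. Of the genes named here Bcl2l1, Chek1, Ccnd2 and Cd80 kept their calls without a filter, while Prdm1 (limma adjusted p = 0.0805), Trp53 (limma adjusted p = 0.109) and Bcl6b (limma adjusted p = 0.0812) did not. Prdm1 had 24.8 and 74.7 CPM in overexpression-labelled libraries 1 and 2, against 52.3 and 65.2 CPM in wildtype libraries 1 and 2, and fell in library 1 by 1.33 (SE 0.189, limma adjusted p = 4.87e-05). Trp53, which encodes p53, had 274 and 102 CPM in overexpression-labelled libraries 1 and 2, against 42.7 and 69.0 CPM in wildtype, and rose in library 1 by 2.15 (SE 0.212, limma adjusted p = 1.57e-06). In library 2 Trp53 differed by 0.90 (limma adjusted p = 0.0744). Bcl2l1, the gene of the survival protein BCL-XL, rose in library 1 by 3.19 and the checkpoint kinase gene Chek1 by 2.72. Ccnd2, which encodes cyclin D2, fell by 5.41 with 21 and 1623 reads in overexpression-labelled libraries 1 and 2 and 2059 and 1599 in wildtype, and the costimulatory ligand gene Cd80 fell by 3.87. Bcl6b, a close relative of Bcl6, rose by 1.82 and was low, with 76 and 8 in overexpression-labelled libraries 1 and 2 and 13 and 5 in wildtype.

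Cdkn2a, which encodes p16 and p19Arf, was not tested; it had 25 and 0 reads in overexpression-labelled libraries 1 and 2 and 0 in both wildtype libraries. Cdkn1a, the p21 gene that p53 induces, had 19.8 and 48.9 CPM in overexpression-labelled libraries 1 and 2, against 185 and 119 CPM in wildtype libraries 1 and 2. The 17 tested genes of the target list had a median difference of 0.18 in library 2. Limma-voom called more of these genes in library 2 than limma did, most of them higher. It also called more of all tested genes there. With a filter of 5 CPM some were called higher as well. By limma on the deposited values, with the filter on low values, Cdkn1a was the only one called there (-1.56). Cdkn1a lost that call when size factors were recomputed, when Rn45s was left out of the scaling, and when no filter was used. In library 1 it fell by 2.95 (SE 0.219, limma adjusted p = 9.77e-08; without a filter limma adjusted p = 0.0827), against the same wildtype pair. The list of 7 plasma cell regulators also holds the product gene Jchain and the surface marker gene Sdc1. Its median in library 1 was -0.95, against -0.15 over all tested genes, and fewer of its genes passed without a filter. Xbp1 fell there by 0.95, past the threshold under each setting but that without a filter. Syndecan gene Sdc1 rose by 2.81, the J chain gene Jchain fell by 4.93, the elongation factor gene Ell2 fell by 3.25 and Irf4 fell by 0.36, the last a call lost with recomputed size factors (limma adjusted p = 0.111), with totals without Rn45s (limma adjusted p = 0.269) and without a filter (limma adjusted p = 0.278). In library 2 Xbp1 of this list fell by 0.77 (limma adjusted p = 0.0264) and the median was 0.18; that call was lost with log2 of normalised reads plus 0.5 (limma adjusted p = 0.0692), recomputed size factors (0.113), totals without Rn45s (0.175) and without a filter (0.221).

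**Figure D4:**
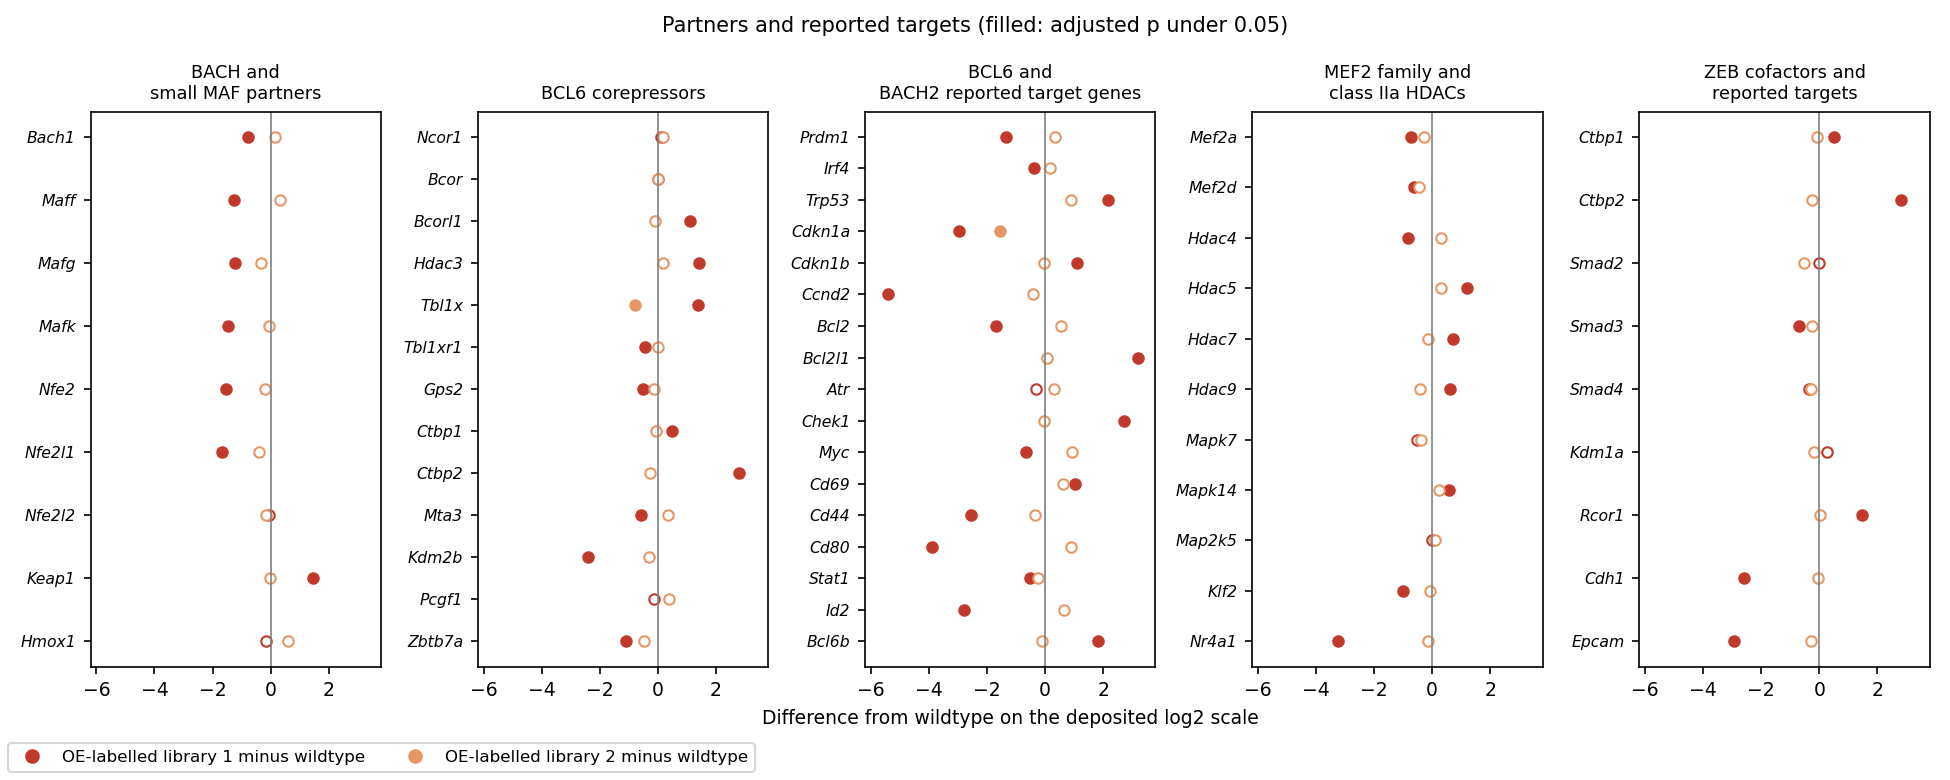
Differences from the wildtype pair on the deposited log2 scale for nearly all tested partners, cofactors and reported targets of the 5 factors. Some of the genes shown are not named in the text. Filled points have an adjusted p under 0.05. In library 1 most BACH partners lie left of 0 (median -1.22), and in library 2 the filled points are Tbl1x and Cdkn1a.

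Mef2c kept the largest share of MEF2 transcripts. Per kilobase of coding length it made up 53.1% and 58.3% of the family in overexpression-labelled libraries 1 and 2 and 56.3% and 59.8% in wildtype libraries 1 and 2. By exon length Mef2d stood above Mef2c in each library, so its rank too rests on the length used. Mef2d had 292 and 299 CPM in overexpression-labelled libraries 1 and 2, against 431 and 393 CPM in wildtype, and Mef2a had 139 and 170 CPM, against 220 and 199 CPM in wildtype. Like Mef2c, both were lower in each overexpression-labelled library than in either wildtype library. This was common, as 23% of all tested genes showed it. In library 1, with the filter on low values, Mef2a fell by 0.73 (limma adjusted p = 0.000454) and Mef2d by 0.64 (limma adjusted p = 0.000678). Mef2b had 0 reads in every library, which allows up to 0.147 to 0.211 CPM (3 reads, counting error only).

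Class IIa histone deacetylases, which bind MEF2 factors, did not all follow. Among all tested genes 26.8% were called higher and 34.4% lower in library 1. Of the 11 tested genes of the MEF2 and deacetylase list 4 rose and 5 fell in library 1 (median -0.52), against 0 and 1 (Nr4a1) without a filter. Hdac7, the partner of MEF2C in B cell progenitors, had 58.5 and 27.9 CPM in overexpression-labelled libraries 1 and 2, against 31.9 and 30.5 CPM in wildtype, and rose in library 1 by 0.73 (limma adjusted p = 0.00401). Hdac5 rose by 1.21 and Hdac9 by 0.62, while Hdac4, named after its value was seen, fell by 0.82 (limma adjusted p = 0.0074). The MEF2-responsive genes Nr4a1 (-3.24) and Klf2 (-1.02) fell. In library 2 none of the 11 passed by limma on the deposited values (median -0.14); by limma-voom Mef2d did (-0.45, limma-voom adjusted p = 0.0374).

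Of 13 ZEB cofactors and reported targets 9 were tested, and in library 1 3 rose, 3 fell and 3 did not pass (median -0.01); without a filter 1 of 13 (Ctbp2) was called. The corepressor genes Ctbp2 (2.81) and Rcor1 (1.45) rose. Over all tested genes 26.8% were called higher in library 1 and 34.4% lower. Cdh1, the E-cadherin gene that ZEB factors repress in epithelial cells, had 0 and 64 reads in overexpression-labelled libraries 1 and 2, against 92 and 33 in wildtype libraries 1 and 2. It was thus at least 19.5-fold lower in library 1 than the wildtype mean (floor of 3 reads in that library, counting error only). Epcam, another epithelial adhesion gene, fell there by 2.93. In library 2 0 of the 9 passed (median -0.25).

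Markers of B cell stages and of other cells moved beside these genes, and fewer cells of a type and less RNA per cell cannot be told apart in such bulk samples. Of all tested genes 26.8% were called higher and 34.4% lower in library 1, and 0.769% and 0.888% in library 2. Pro-B and pre-B markers summed to 4657 and 7.76 CPM in overexpression-labelled libraries 1 and 2 and to 27.2 and 16.8 CPM in wildtype libraries 1 and 2; 4 of the 9 were tested and 3 rose in library 1 (median 4.87). Immature and mature B cell markers summed to 299 and 19215 CPM in overexpression-labelled libraries 1 and 2 and to 20667 and 21403 CPM in wildtype, and all 10 fell in library 1 (median -5.64). Of the 9 B lineage markers 3 rose and 5 fell there (median -0.36). The low Bcl6 and Mef2c and the high Zeb2 of library 1 thus stood beside a different stage profile, whose part was not tested.

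Markers of plasmacytoid dendritic cells, which depend on Zeb2, summed to 253 and 817 CPM in overexpression-labelled libraries 1 and 2 and to 929 and 766 CPM in wildtype libraries 1 and 2. Of these sums Irf8 alone gave 38.5 and 231 CPM in the overexpression-labelled libraries and 273 and 257 CPM in wildtype. Which cells gave that RNA cannot be told in bulk samples, so the sums do not measure how many such cells there were. In library 1 9 of the 10 fell (median -3.05), and Klk1 was at 0 reads. T and NK cell markers summed to 6.48 and 29.0 CPM in overexpression-labelled libraries 1 and 2 and to 60.3 and 58.5 CPM in wildtype, with 8 of 10 lower in library 1 (median -2.03) and Cd8a, Nkg7 and Gzma at 0 reads there. Monocyte and macrophage markers summed to 44.6 and 279 CPM in overexpression-labelled libraries 1 and 2 and to 74.8 and 88.7 CPM in wildtype; 7 of the 10 were tested, 3 fell in library 1 (median -0.52), and Fcgr1, Adgre1 and Cx3cr1 were among those at 0 reads there. In library 2 the numbers called were 0 of 10 for plasmacytoid dendritic cell markers (median -0.25), 2 of 10, both lower, for T and NK cells (median -0.54) and 2 of 7, both higher, for monocytes (median 0.14); with totals without Rn45s or without a filter none of these was called. The neutrophil median was 1.77 in library 1 and 5.16 in library 2. How many neutrophil markers were called higher in library 1 turned on the setting. It was most of those tested by limma-voom, some with the deposited values and the filter, and none with recomputed size factors or totals without Rn45s. Of the B cell markers in library 2 the numbers called were 1 higher and 1 lower of 10 mature markers (median -0.09), 1 lower of 4 pro-B and pre-B markers (median -0.54) and 0 of 9 B lineage markers called (median 0.18). Without a filter the counts in library 1 were 10 of 10 lower for mature B cell markers and 5 of 9 higher for pro-B and pre-B markers, 2 of 10 lower each for plasmacytoid dendritic and for T and NK cells, 1 of 10 lower for monocytes, and 0 of 10 for neutrophils.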

How the data were processed

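RNA was sequenced from sorted B220-positive marrow cells, with 1 ug of total RNA per library according to the labels' protocols. STAR, HTSeq, DESeq2 and the build mm10 are named, per the submitters' processing notes; their roles, versions and settings, strandedness and annotation are not given in the sources used here. The authors deposited log2 values, which share a floor of 4.95 and follow the curve that DESeq2's variance stabilization gives. Solving that curve for each value returned whole reads for 100% of values (tolerance 0.01), and totals, CPM and normalised reads come from these. One file's header has another digit than its title, so its sample was taken from the deposit's record. A misspelled genotype was read as wildtype.

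Tested genes (12617) had 15 reads in all and, scaled to the median library, 10 reads in 2 or more libraries. Deposited log2 values were fitted by limma-trend, two-sided (version 3.58.1 under R 4.3.3), with Benjamini-Hochberg adjustment over all tested genes and a threshold of 0.05. In fits of a single library the spread comes from the wildtype pair and the prior across genes. Spans and lengths come from GENCODE M21 (GRCm38), and upstream stretches from RefSeq (GRCm38.p6), where Bach2, Bcl6, Mef2c and Zeb2 were matched by symbol. Alternatives changed the scale, size factors, filter, test, prior and libraries. Named partner genes are the 2 largest called rises and falls of each partner list and a fixed set. Xist, Xbp1, Hdac4, Ptprc, Cd79b, Pax5, Ebf1 and the markers at 0 were named after their values were seen. Members and lists were chosen with earlier results of these data known, so no list was tested as a set. Some listed genes count in their lists but are not reported here by name.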

Additional observations from a re-analysis of the deposited data

How the results depend on the processing

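No paired analysis was possible because the titles give no replicate numbers that the groups share. With both overexpression-labelled libraries against wildtype, no setting that kept all 4 libraries called a gene. Leaving out one library gave 0 to 7721 genes and 0 to 3 members called, with differences of -1.12 to 0.32 for Bach2, -2.46 to -0.13 for Bcl6, -0.97 to -0.38 for Mef2c, -0.25 to 0.14 for Zeb1 and -0.22 to 0.42 for Zeb2. In that comparison Zeb1 was 0.038 with totals without Rn45s. In library 1 the count of 7721 genes was 2642 without a filter on low values, and 3 members remained the number called under each other setting except those that also called Bach2 (0.42 with recomputed size factors, 0.52 with totals without Rn45s, 0.32 with 5 CPM in 2 libraries), while Zeb2 (0.42) was lost without a filter. In library 2 the count of 209 genes was 56 with log2 of normalised reads plus 0.5, 18 with recomputed size factors, 0 with totals without Rn45s, 0 without a filter and 614 by limma-voom; Bach2 (-1.14 with totals without Rn45s, -1.12 without a filter) was then not called under those 2 settings, which left 0 members. For library 1 minus library 2 the count of 6631 genes was 2486 without a filter, where Bcl6 was the 1 member called and Bach2 (1.44), Mef2c (-0.59) and Zeb2 (0.64) were not. The cause of these changes was not tested. Library totals without Rn45s moved the median of all genes in library 1 to 0.03, against -0.15 with the deposited scaling; relative to the median, Bcl6 was -2.31 and Mef2c -0.82 there with the deposited scaling. In library 1 Hmox1 was 0.029 with totals without Rn45s and Bcor 0.089 and 0.19 with recomputed size factors and totals without Rn45s. Of the 33 named partner genes called in library 1, 24 were lost without a filter, and Bcl2l1, Ccnd2, Cd80, Chek1, Ctbp2, Jchain, Kdm2b, Nr4a1 and Tbl1x were not. Ell2 of the plasma cell regulators, outside that count, also kept its call in library 1 without a filter. The counts of each list and the Xbp1 difference were repeated under these settings after the data were seen.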

Other observations

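Some annotated genes overlap the 5 factors, and strand use in counting is not given, so reads of a gene and its antisense partner cannot be told apart. Bach2os had 48 and 68 reads in overexpression-labelled libraries 1 and 2 and 94 and 78 in wildtype libraries 1 and 2. Zeb2os had 71 and 65 reads in the overexpression-labelled libraries and 140 and 57 in wildtype. Gm10125, antisense to Zeb1, had 0 and 23 reads in the overexpression-labelled libraries and 14 and 20 in wildtype, so it was at least 5.91-fold lower in library 1 (floor of 3 reads in that library, counting error only). These numbers are small beside the reads of Bach2, Zeb2 and Zeb1.

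The 3 nearest tested genes on either side of each factor, 30 in all, were taken by position after the data were seen, and those named here were picked after their values were seen. In library 1 8 of them rose and 9 fell, and in library 2 0 were called by limma. These counts, of 30, are near the share of all tested genes called higher (26.8%) and lower (34.4%) in library 1. All 6 neighbours of Zeb2 fell in library 1, among them Gtdc1 (-1.05) and Arhgap15 (-0.76), while Zeb2 itself rose. Around Bcl6 3 of 6 rose and 0 fell, among them Lpp (0.90) and the replication factor gene Rfc4 (1.54), while Bcl6 fell. Around Mef2c 3 of 6 rose, among them Ccnh (2.23), around Bach2 1 rose and 2 fell, and around Zeb1 1 rose and 1 fell.

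Likeness of pattern was measured as the root mean square difference of log2 values, each gene centred on its mean over the 4 libraries, among 8876 tested genes with a mean of at least 5 CPM. The genes most like Bach2 were Nckap1 (0.0802), St3gal5 (0.115) and Pqlc3 (0.130), and those most like Bcl6 were Ube2v1 (0.0170), Zdhhc18 (0.0218) and Snora31 (0.0283). Fyn (0.0218), Limk2 (0.0233) and Mapre2 (0.0250) came closest to Mef2c. Dync2h1 (0.00501), Jtb (0.0117) and Atg4b (0.0137) came closest to Zeb1, and Sept7 (0.0195), Tmem135 (0.0220) and Dctn1 (0.0226) to Zeb2. The distance of the nearest gene was thus larger for Bach2 than for the other 4. With 4 libraries such likeness is a description only.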
